A study of Mus musculus with 6 samples.

Results

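The Notch pathway was described here through 8 genes: the receptors Notch1, Notch2 and Notch3, the ligands Jag1, Jag2 and Dll1, and the target genes Hes1 and Hey1. They were chosen by name, with earlier results of these data known. Every probe set annotated to 1 of these genes alone was read. This gave 14 probe sets for the 8 genes, among 34945 probe sets for 18193 named genes. Total RNA of mouse cells was labelled with biotin and hybridised to 6 arrays. Activated FL-Y (1 array) is the SV40-transformed, FDC-like line FL-Y after treatment with an antibody to the lymphotoxin beta receptor, and FL-Y (1 array) is the same line without that treatment. Follicular dendritic cells (FDC, 2 arrays) had been grown in culture, and bone marrow-derived dendritic cells (BMDC, 2 arrays) were the other primary cell type. The labels give no strain, age, dose or duration, and do not say whether the paired arrays came from separate cultures, so the p-values below describe the spread between arrays alone, and that spread may be technical. FL-Y is 1 transformed line and stands for FDC only as far as it resembles them.

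Notch receptors are single-pass membrane proteins that are activated by Jagged and Delta-like ligands on a neighbouring cell. Ligand binding lets ADAM proteases and then gamma-secretase cut the receptor, and the released intracellular part joins the DNA-binding protein RBPJ and Mastermind coactivators in the nucleus. Genes of the Hes and Hey families, which encode basic helix-loop-helix repressors, are its classical targets. In lymphoid tissue, Notch2 and the stromal ligand Dll1 are known for their part in the marginal zone B cell fate, and Notch signals also act in the development of splenic dendritic cells.

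The arrays carried the identity of the samples in part. Fibroblast markers, 8 genes on the array, summed to 225451 and 137865 signal units on the FDC arrays, against 2795 and 1807 on the BMDC arrays, and dendritic cell markers (10 genes) to 3016 and 2895 on the FDC arrays, against 170449 and 136798 on the BMDC arrays. Of the 2 defining receptors of mature FDC, Cr2 was at 119.5 and 4.1 on the FDC arrays, against 59.1 and 71.1 on the BMDC arrays, and Fcer2a had 104.1 and 42.4 against 54.8 and 61.4, and the groups overlapped for both. Other genes of the FDC list had higher signals in FDC without passing the test: Vcam1, an adhesion molecule, was at 6959.3 and 5764.4 in FDC and at 108.4 and 874.7 in BMDC, Pdpn at 6473.4 and 11598.5 against 3701.5 and 2161.5, and the chemokine Cxcl13 at 1288.2 and 64.5 against 50.9 and 36.4. Of the 12 genes of the list on the array (13 listed), 0 were called higher and 3 lower in FDC (Fcgr2b, Mfge8 and Clu). The list summed to 28412 and 30735 in FDC and to 72260 and 65080 in BMDC, where Fcgr2b (32488.0 and 23876.6) and Mfge8 (27357.5 and 25081.7) made up most of the sum. Some markers of other cell types were also called higher in FDC, beside 5.85% of all genes tested. These were 3 of 6 mast cell markers (Mcpt4, Tpsab1 and Tpsb2) and 3 of 7 T cell markers (Cd3d, Cd3g and Cd8b1). Mcpt4 was at 908.7 and 822.8 in FDC and 41.3 and 40.9 in BMDC. The mast cell marker Kit was lower in FDC (44.3 and 107.8, against 155.4 and 121.2) without passing the test. Cpa3 and Fcer1a overlapped between the groups. The other T cell markers were higher in FDC without passing the test. The mast cell list summed to 5657 and 8668 in FDC and to 4804 and 864 in BMDC. The part of these cell types in the differences below was not tested. The labelled name FDC is kept here for the cultured cells. On the second array of both cell types the labelling controls were high against the hybridisation controls, at ratios of 0.2734 (FDC) and 0.4175 (BMDC), against 0.09936 and 0.08588 on the first arrays. The median signal of all probe sets lay between 79.6 and 82.5 on the FDC arrays, between 76.4 and 84.4 on the BMDC arrays, at 47.9 on the activated FL-Y array and at 61.1 on the FL-Y array.

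Promoter sequence is shown for 2 of the 6 members on file, Notch1 and Jag1. Hes proteins are known to bind N boxes (CACNAG, or CTNGTG on the other strand) and class C sites (CACGCG, or CGCGTG). The Notch1 window held the most N boxes and the Jag1 window the most class C sites. The windows are from RefSeq on GRCm38.p6 and run from 250 bases before to 50 bases after an annotated start, 5′ to 3′ on the gene's strand, and capitals mark N boxes in Notch1 and class C sites in Jag1. The Notch1 window is chr2:26503773-26504072 and the Jag1 window chr2:137116471-137116770, both on the minus strand.
Notch1: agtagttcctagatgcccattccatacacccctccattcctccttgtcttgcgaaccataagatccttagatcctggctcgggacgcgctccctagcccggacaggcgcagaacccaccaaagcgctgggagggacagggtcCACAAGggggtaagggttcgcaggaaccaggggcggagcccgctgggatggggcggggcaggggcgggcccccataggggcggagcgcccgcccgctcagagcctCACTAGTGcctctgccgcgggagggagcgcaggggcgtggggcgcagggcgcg
Jag1: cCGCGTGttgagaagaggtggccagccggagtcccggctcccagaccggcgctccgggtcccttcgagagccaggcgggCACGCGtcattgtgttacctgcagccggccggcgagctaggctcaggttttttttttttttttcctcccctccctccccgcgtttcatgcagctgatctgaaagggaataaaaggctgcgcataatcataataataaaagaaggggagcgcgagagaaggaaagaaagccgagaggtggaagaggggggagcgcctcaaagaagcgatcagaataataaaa

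The Notch1 window held 3 N boxes, the first 108 bases before the start and the other two overlapping in 1 palindrome across the start. The Jag1 window held 2 class C sites, 249 and 171 bases before the start. N boxes were also found in windows of Notch2, Notch3 and Dll1, and class C sites in those of Notch2, Jag2 and Dll1. Over all 32851 promoter windows of this length, 42.5% held an N box and 9.27% a class C site on either strand. The RBPJ core (TGGGAA, or TTCCCA on the other strand) was found in 0 of the 7 windows on file for 6 of the 8 genes, and in 25.6% of all windows. A match describes these letters only and is not evidence of binding.

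The first comparison, FDC against BMDC, is the one named in the study's design. Hes1 was higher in FDC, both Notch1 probe sets had lower signals in FDC without passing the test, and Notch2 was at like levels in both cell types. Signals were analysed as log2(signal + 14.1) with limma, where 14.1 is the median over arrays of each array's 20th percentile, and every fold or difference below is on that scale, which understates changes of dim genes. A probe set was tested when its mean over the 4 arrays lay above the 40th percentile. This kept 11 of the 14 member probe sets, for 7 of the 8 genes, and left out the only Hey1 probe set and 1 each of Notch3 and Jag2. At an adjusted p of 0.05 over all 27022 probe sets tested, 1 of the 11 was called, higher in FDC, and 0 were lower. Across all tested probe sets 8.92% were called, 4.83% higher and 4.09% lower, so the share among the member probe sets was near that of the arrays as a whole. At an unadjusted p under 0.05, 4 of the 11 passed, against 23.5% of all. The FDC and BMDC arrays did not overlap for 5 of the 11, 2 higher and 3 lower in FDC, against 54.7% of all (25.8% higher and 28.9% lower). The median difference of the 11 was 0.05, beside -0.05 for all probe sets tested.

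**Figure D1:**
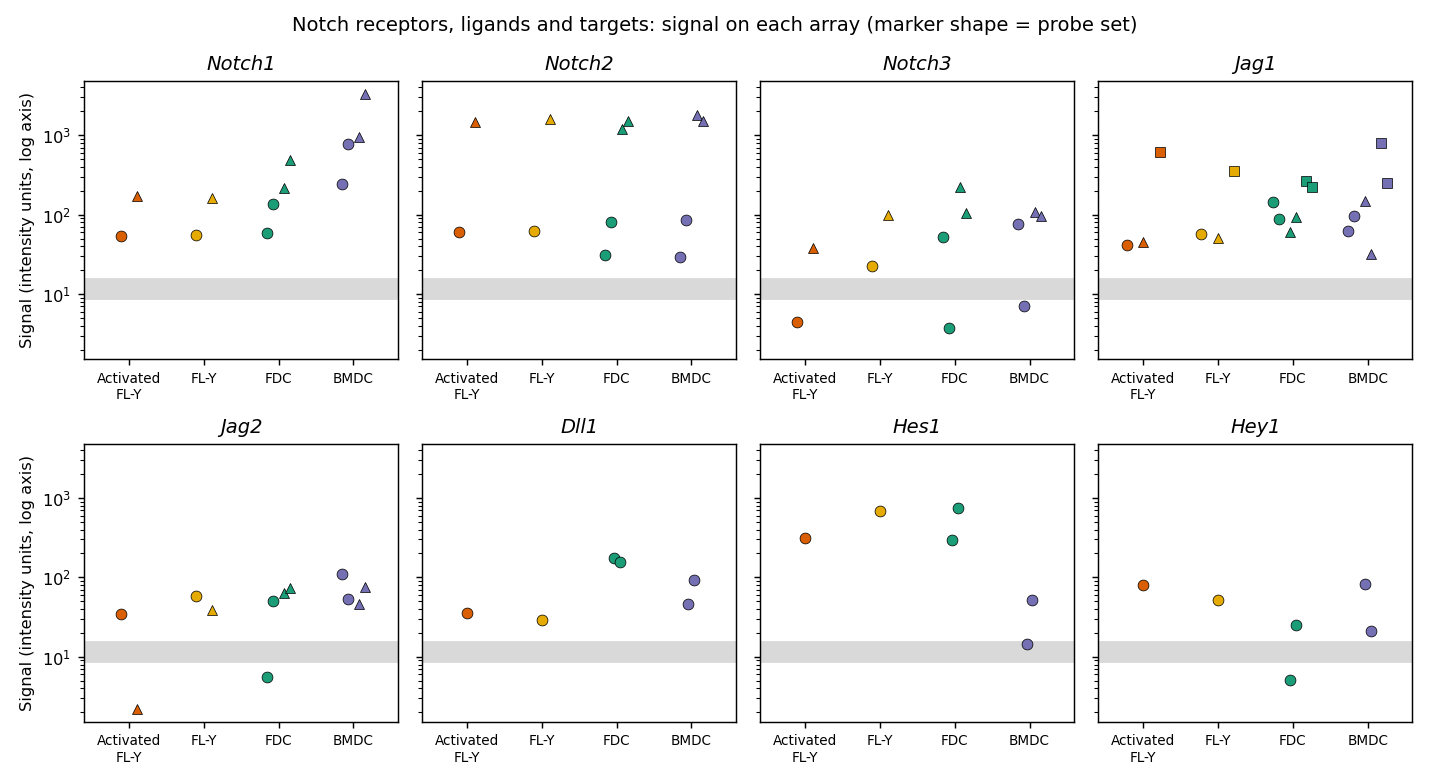
Signal of every member probe set on each array, in intensity units on a log axis, by group from left to right: activated FL-Y, FL-Y, FDC and BMDC. Each point is 1 array, marker shapes separate the probe sets of a gene, and the grey band spans the 20th percentiles of the 6 arrays (8.7 to 15.4). Hes1 lies between 291.8 and 737.8 on the FDC and between 14.4 and 51.8 on the BMDC arrays.

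Among the target genes, Hes1, a repressor that keeps progenitor cells undifferentiated in many tissues, stood apart. Its probe set (1418102_at) read 291.8 and 737.8 on the FDC arrays, against 14.4 and 51.8 on the BMDC arrays. The groups did not overlap, and BMDC array 1 was close to that array's 20th percentile, so the size of the difference depends on the offset. The mean was 515 ± 315 in FDC and 33.1 ± 26.4 in BMDC (SD, n = 2 each), a log2 difference of 3.47 ± 0.65 (SE) with a 95% interval of 1.82 to 5.12 and a limma adjusted p of 0.0362. In both cell types the second array was the higher one, by 1.30 in FDC and 1.21 in BMDC on the log2 scale. Array 1 alone gave a difference of 3.42, array 2 alone one of 3.51. The labels do not pair the arrays by number, so the closeness of these values is not a replicate check. The ratio of labelling to hybridisation controls moved with the array number, and its part in the spread was not tested. Without FDC array 2 the difference was 2.82 (adjusted p = 0.0843) and without BMDC array 1 it was 2.86 (adjusted p = 0.111), and the call was also lost with a floor in place of the offset (4.09, adjusted p = 0.0721) and with no filter (3.47, adjusted p = 0.0746). In bulk RNA, fewer cells of a type and less RNA per cell cannot be told apart. Markers of mural cells summed to 19268 and 62748 on the FDC arrays and to 698 and 614 on the BMDC arrays (8 genes). Acta2 and Tagln were called higher in FDC, 2 of the 5 tested, and with Cnn1 they made up nearly all of the sum. The others were dim and mixed in direction. Cspg4 was at 108.0 and 301.2 in FDC and 54.2 and 22.9 in BMDC, and Myh11 at 63.5 and 82.6 in FDC and 57.7 and 42.9 in BMDC, both short of the threshold. Rgs5 (18.7 and 48.9 in FDC, 44.3 and 51.2 in BMDC) and Mcam (3.0 and 16.7 in FDC, 53.2 and 9.8 in BMDC) overlapped between the groups, as did Des. Their part in the difference was not tested.

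Hey1, the second target, encodes a related repressor known from vessels and heart. It was at 5.1 and 24.9 on the FDC arrays, against 83.3 and 20.9 on the BMDC arrays, and the groups overlapped. At these levels, with FDC array 1 under its array's 20th percentile, no difference was detectable. With no filter on dim probe sets the log2 difference was -1.09 ± 0.69 (SE; limma adjusted p = 0.526).

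Among the receptors, Notch1, which directs T cell commitment in the thymus, had the lower signals in FDC. Its brighter probe set (1418634_at) was at 216.7 and 489.0 on the FDC arrays and at 942.5 and 3333.2 on the BMDC arrays. The other (1418633_at) was at 58.4 and 137.8 in FDC and at 241.9 and 771.9 in BMDC. Every BMDC value lay above every FDC value in both probe sets, and again the second array of each cell type was the higher one. The log2 differences were -2.39 ± 0.75 and -2.10 ± 0.70 (SE), with 95% intervals of -4.27 to -0.51 and -3.85 to -0.34, and neither passed the threshold (limma adjusted p = 0.129 and 0.149). For the brighter probe set array 1 alone gave -2.05 and array 2 alone -2.73, a pairing by number that the labels do not give. The 7 T cell markers on the array summed to 2611 and 1555 in FDC and to 525 and 219 in BMDC. Their part in the Notch1 difference was not tested.

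Notch2, the receptor of marginal zone B cells and splenic dendritic cells, had the steadiest signal of the group. Its bright probe set (1455556_at) was at 1187.2 and 1512.8 on the FDC arrays, against 1804.3 and 1529.8 on the BMDC arrays. The FDC values were lower by a little, and the log2 difference was -0.31 ± 0.39 (SE) with a 95% interval of -1.28 to 0.67 (limma adjusted p = 0.697). The dim probe set (1451889_at) was between 31.5 and 81.2 in FDC and between 29.2 and 84.7 in BMDC.

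Notch3, a receptor of mural and other mesenchymal cells, was dim. Probe set 1421965_s_at, whose suffix marks probes that can match more than 1 transcript, had 220.2 and 105.4 on the FDC arrays and 107.2 and 95.6 on the BMDC arrays. FDC array 1 stood above the rest, and the log2 difference was 0.54 ± 0.47 (SE; limma adjusted p = 0.568). The second probe set (1421964_at) ranged from 3.8 to 76.9 over the 6 arrays, fell under the 20th percentile on 3 of them and was not tested.

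Among the ligands, Dll1, which acts on Notch2 in the spleen, had the higher signals in FDC. It was at 174.9 and 155.5 on the FDC arrays, against 46.4 and 92.2 on the BMDC arrays, with no overlap. The log2 difference of 1.16 ± 0.44 (SE), with a 95% interval of 0.04 to 2.28, did not pass the threshold (limma adjusted p = 0.199). Array 1 alone gave 1.64 and array 2 alone 0.67, again without a pairing in the labels.

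Jag1, a ligand with broad expression in stroma and epithelium, gave unlike values in its 3 probe sets. The brightest (1434070_at) had 265.8 and 224.1 on the FDC arrays, against 787.3 and 250.6 on the BMDC arrays. BMDC array 1 alone stood apart, and the log2 difference was -0.83 ± 0.61 (SE; limma adjusted p = 0.490). The others had differences of 0.46 ± 0.45 (1421105_at, 143.3 and 87.1 in FDC and 61.9 and 96.8 in BMDC) and 0.05 ± 0.68 (1421106_at, 60.4 and 92.9 in FDC and 146.7 and 32.0 in BMDC). None of the 3 passed the threshold, and their signs differed, so no direction can be given for Jag1.

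Jag2, a ligand known from thymus and limb, was dim throughout. Probe set 1426431_at had 63.3 and 72.5 on the FDC arrays and 46.4 and 74.6 on the BMDC arrays, which is a log2 difference of 0.16 ± 0.40 (SE; limma adjusted p = 0.857). Probe set 1426430_at, at 5.6 and 50.5 in FDC and 108.9 and 53.9 in BMDC, was under the filter and was not tested.

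**Figure D2:**
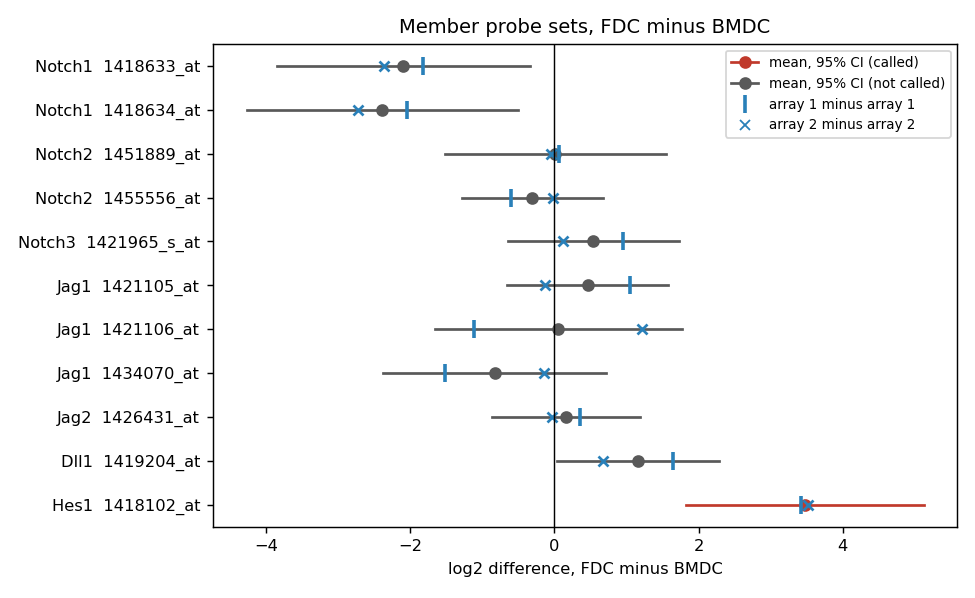
The log2 difference, FDC minus BMDC, of the 11 tested member probe sets (x axis). Dots with bars are the limma estimate with its 95% interval, red where called. The blue marks are array 1 minus array 1 and array 2 minus array 2, a pairing that the labels do not give. Hes1 lies at 3.47 and the Notch1 probe sets at -2.10 and -2.39.

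The rest of the pathway was read through 74 further genes in 8 roles, of which 69 had a probe set annotated to that gene alone and 60 were tested by their brightest probe set. Of the 60, 2 rose and 1 fell in FDC, with a median difference of -0.05, beside -0.03 for all 12750 genes tested. This was 3 genes of 60, while 11.2% of all genes were called (5.85% higher and 5.4% lower), and 11 of the 60 had an unadjusted p under 0.05, against 27.2% of all genes.

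Ligand endocytosis was represented by 7 tested genes, of which 1 rose: Epn2, an epsin, the family of endocytic adaptors that pulls on ubiquitinated ligand. Epn2 was at 1095.6 and 1329.4 on the FDC arrays and at 50.6 and 85.5 on the BMDC arrays, which is a log2 difference of 3.93 ± 0.42 (SE; limma adjusted p = 0.0074). Of its 6 probe sets 4 were tested, and all 4 were called higher.

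Receptor glycosylation held 5 tested genes, of which 1 fell: Mfng, the Manic fringe glycosyltransferase that changes the response of Notch to its ligands. Mfng was at 56.3 and 41.2 on the FDC arrays and at 493.2 and 503.4 on the BMDC arrays, which is a log2 difference of -3.04 ± 0.38 (SE; limma adjusted p = 0.0114). It lost the call without BMDC array 1 (adjusted p = 0.0508) or BMDC array 2 (0.0525), with differences of -3.05 and -3.02.

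Inhibitors and modulators held 10 tested genes, of which 1 rose: Nedd4, a ubiquitin ligase that lowers Notch at the membrane, as known from its fly homologue. Nedd4 was at 16447.7 and 15645.5 in FDC and at 2378.5 and 2342.1 in BMDC, a log2 difference of 2.76 ± 0.37 (SE; limma adjusted p = 0.0136), and all 3 of its probe sets were called higher. Its call, too, was lost without either BMDC array (adjusted p = 0.0603 and 0.0611), with differences of 2.77 and 2.75.

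No tested gene was called with limma by its representative probe set in the other 5 roles. Gata3, one of the other targets and named after its values were seen, was under the filter. It was at 156.3 and 101.1 in FDC and at 5.5 and 2.7 in BMDC. With no filter its log2 difference was 2.95 ± 0.46 (SE, limma adjusted p = 0.0413). At an unadjusted p under 0.05, 2 of 8 genes of receptor cleavage and 3 of 9 other targets passed, and 0 of the other receptors and ligands, the nuclear complex and the corepressors, counts too small to set apart from the 27.2% of all genes. Rbpj, the DNA-binding protein of the pathway, was at 2953.6 and 3412.5 in FDC and at 4013.9 and 5285.4 in BMDC, a log2 difference of -0.53 ± 0.39 (SE; limma adjusted p = 0.485). Psenen, a gamma-secretase subunit, had a difference of -0.34 ± 0.39 (adjusted p = 0.668), the corepressor Ctbp1 one of -0.63 ± 0.51 (0.530), and the ligand-like Dlk2 one of 0.21 ± 0.45 (0.829). Ccnd1, which encodes cyclin D1 and is a target in some cells, was at 5366.5 and 16405.6 in FDC and at 707.0 and 1957.6 in BMDC. Its log2 difference was 2.98 ± 0.76 (SE; limma adjusted p = 0.0795), and 1 of its 3 probe sets was called higher (1417419_at, 3.02 ± 0.45, adjusted p = 0.0189).

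**Figure D3:**
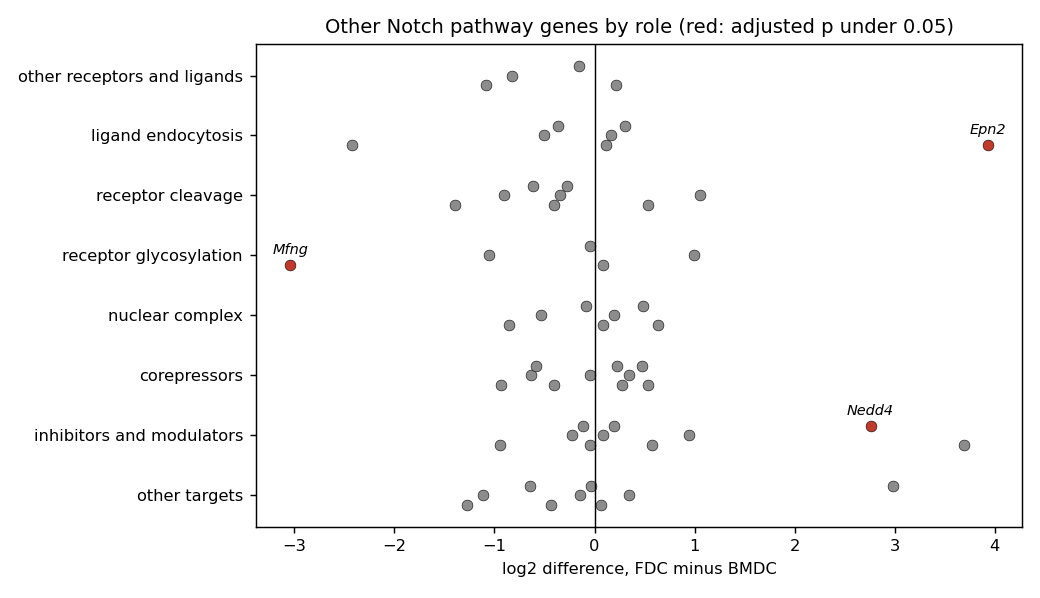
The log2 difference, FDC minus BMDC (x axis), of the 60 tested genes of the wider Notch pathway by role (rows). Each point is the representative probe set of a gene, red where the limma adjusted p is under 0.05. Epn2 (3.93), Nedd4 (2.76) and Mfng (-3.04) are the 3 called genes.

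The FL-Y line was set against cultured FDC to see how far its Notch genes resemble theirs. FL-Y had 1 array, so its differences have no replicate check and were not tested. A difference was counted when FL-Y lay more than 1 log2 unit above or below both FDC arrays. This held for 20.3% of 27022 probe sets (7.3% higher and 13.0% lower). Directions here depend on the scaling. The median difference of these probe sets was -0.108 as deposited, 0.277 with the arrays rescaled to one median and 0.062 after quantile normalization. Of the 11 member probe sets above the filter in this comparison, 1 was counted, lower in FL-Y, and 0 were higher.

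That probe set was Dll1, at 29.0 on the FL-Y array, against 174.9 and 155.5 on the FDC arrays. The log2 difference was -2.05 from the mean of the FDC arrays, and FL-Y was also below both BMDC arrays (46.4 and 92.2). Hes1 was at 692.3 in FL-Y, inside the FDC range of 291.8 to 737.8 and above both BMDC arrays. The brighter Notch1 probe set was at 164.2 in FL-Y, against 216.7 and 489.0 in FDC, and lay -0.37 and -1.50 log2 units from the FDC arrays.

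Notch2 was at 1580.5 in FL-Y, against 1187.2 and 1512.8 in FDC, so the deposited FL-Y value exceeded both by little. Its log2 difference from the FDC mean was 0.24, and 0.64 with the arrays rescaled to one median. Notch3 (1421965_s_at) was at 99.0 against 220.2 and 105.4, and Jag1 (1434070_at) at 356.6 against 265.8 and 224.1. Hey1 was at 52.4 in FL-Y, against 5.1 and 24.9 in FDC, under the filter. Jag2 gave differences of opposite sign, with 1426431_at at 38.4 in FL-Y, against 63.3 and 72.5 in FDC, and 1426430_at at 58.4, against 5.6 and 50.5 in FDC and under the filter. By deposited level, Hes1 ran in the order FDC array 2, FL-Y, activated FL-Y, FDC array 1, BMDC array 2 and BMDC array 1. FDC and FL-Y could not be ordered because the deposited FL-Y value lay between the FDC arrays. With the arrays rescaled to one median, the Hes1 log2 difference of FL-Y from the FDC mean was 0.96 in place of 0.56. By deposited level, Notch1 (1418634_at) was highest on the BMDC arrays, then on the FDC arrays, then in activated FL-Y (173.5) and FL-Y (164.2). In the other probe set (1418633_at), FL-Y (55.5) and activated FL-Y (54.4) were close to FDC array 1 (58.4). With the arrays rescaled to one median, the difference of FL-Y from the FDC mean in 1418634_at was -0.55 in place of -0.93.

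Of the 58 further pathway genes above the filter, 3 were counted higher and 7 lower in FL-Y than in FDC. Over all probe sets the shares were 7.3% higher and 13.0% lower. The median difference of the 58 was -0.22, beside -0.10 for all genes. The 3 higher genes, named after their values were seen except Ctbp1, were Dlk1, a Delta-like protein of mesenchymal progenitors, at 312.2 against 30.0 and 34.3, the histone deacetylase Hdac2 at 3633.9 against 1599.8 and 1382.6, and Ctbp1 at 5191.9 against 2150.8 and 1370.7. The log2 differences of these 3 were 2.82, 1.28 and 1.59. The 7 lower genes were also named after their values were seen, with differences from -1.29 to -3.50. Dtx3l, a Deltex family ligase, was at 131.3 in FL-Y, against 958.0 and 2767.8 in FDC (-3.50), and Numb, an inhibitor of Notch, at 563.9 against 1829.2 and 1840.8 (-1.68). Nrarp, a Notch target, was at 14.8 in FL-Y, against 137.2 and 59.7 in FDC (-1.87). The log2 differences of the other lower genes were -2.90 for Il2ra, -1.55 for Neurl3, -1.33 for Bhlhe40 and -1.29 for Itch. On the FL-Y array Il2ra was at 3.9, under that array's 20th percentile of 12.1, and Neurl3 at 20.3, so the sizes of these differences depend on the offset. Each of these genes was read by its representative probe set alone.

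The second question was how Notch genes differed once FL-Y had been stimulated by the antibody to the lymphotoxin beta receptor, a TNF receptor family member that FDC need for their maintenance. Each condition had 1 array, and no test was made. A difference of more than 1 log2 unit was found for 7.42% of 27022 probe sets, 2.31% higher and 5.11% lower on the activated array. Of the 12 member probe sets above the filter in this comparison, 2 were lower by that much and 0 higher.

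These were Hes1 and Notch3. Hes1 was at 314.7 in activated FL-Y and at 692.3 in FL-Y, a log2 difference of -1.10. Notch3 (1421965_s_at) was at 38.1 in activated FL-Y and at 99.0 in FL-Y, a difference of -1.12 between low signals. The activated array read lower among dim probe sets in general, with a 20th percentile of 8.7 against 12.1 in FL-Y. With all arrays rescaled to one median, the median difference of all probe sets was 0.29 in place of -0.05, and 70.5% in place of 31.1% of the counted probe sets were higher on the activated array. The Hes1 difference was then -0.77 and that of Notch3 -0.87, both lower still but no longer past 1 log2 unit. After quantile normalization 49.1% of the counted probe sets were higher, with Hes1 at -1.07 and Notch3 at -0.79.

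Jag1 ran the other way in its brightest probe set, at 616.0 in activated FL-Y and 356.6 in FL-Y, a log2 difference of 0.77. The other Jag1 probe sets were at 41.9 and 45.5 in activated FL-Y, against 57.4 and 51.5 in FL-Y, so the mean over all 3 gave 0.09. Notch1 (173.5 in activated FL-Y and 164.2 in FL-Y) and Notch2 (1484.8 and 1580.5, in the same order) differed by 0.07 and -0.09. With the arrays rescaled to one median, Notch1 differed by 0.40 and Notch2 by 0.26. Dll1 was at 35.3 in activated FL-Y and 29.0 in FL-Y. Hey1 was at 79.7 in activated FL-Y and 52.4 in FL-Y, a difference of 0.50 at low signal. Jag2 was at 2.2 in activated FL-Y and 38.4 in FL-Y in probe set 1426431_at, a difference of -1.69 that was under the filter, and at 34.9 and 58.4, in the same order, in 1426430_at (-0.57). The mural markers summed to 59492 in activated FL-Y and 90370 in FL-Y, and the fibroblast markers to 104954 and 142733 in the same order, and their part in the Hes1 and Notch3 differences was not tested.

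**Figure D4:**
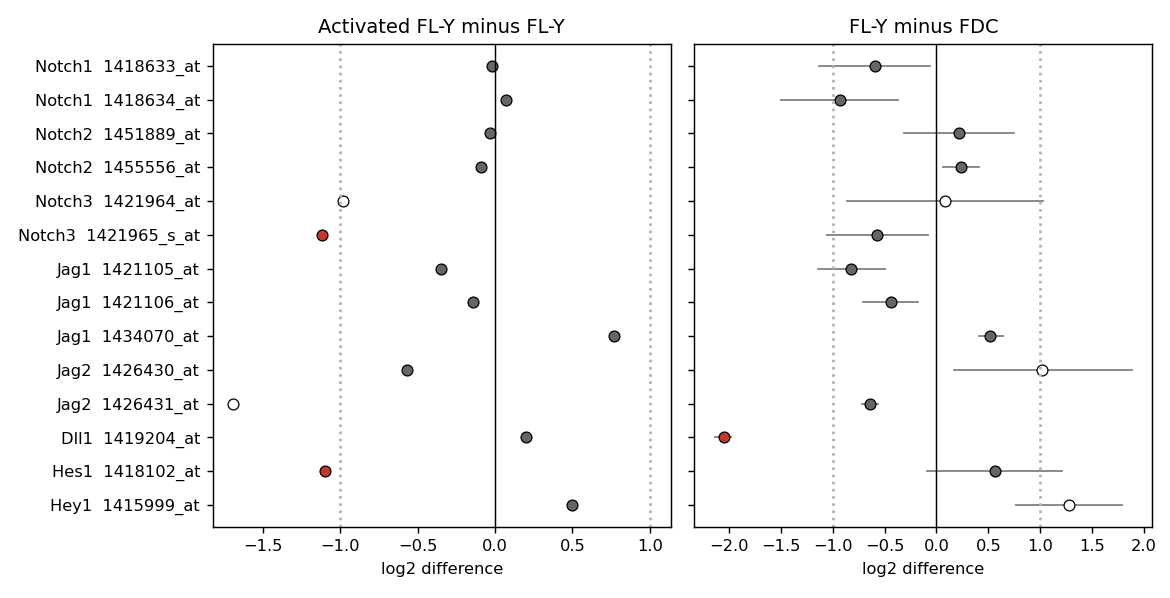
Log2 differences of all 14 member probe sets for activated FL-Y minus FL-Y (left) and FL-Y minus the mean of the FDC arrays (right, with lines to each FDC array apart). Red points passed the size used for counting, open points were under the filter, and dotted lines stand at 1 and -1. Hes1 lies at -1.10 on the left and 0.56 on the right, and Dll1 at 0.20 and -2.05.

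Of 56 further pathway genes above the filter, 1 was higher and 2 were lower by more than 1 log2 unit in activated FL-Y. Over all probe sets the shares were 2.31% higher and 5.11% lower. The median difference of the 56 was -0.10, beside -0.06 for all genes. The higher one was Dtx4, an E3 ubiquitin ligase of the Deltex family that acts on Notch, at 923.8 in activated FL-Y and 286.6 in FL-Y, a difference of 1.64. Its second probe set was at 475.7 in activated FL-Y and 305.4 in FL-Y. The 2 lower ones, named after their values were seen, were Hes5 (11.9 and 69.6, in the same order) and Neurl1a (21.9 and 80.3), both dim. Rbpj was at 2711.8 in activated FL-Y and 1826.6 in FL-Y, a difference of 0.57.

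The genes most like each member were sought among 12750 genes by the root mean square difference between log2 profiles centred over the 6 arrays. They are the nearest of many genes over few arrays, so their high r values follow in part from the search itself. The arrays differ in cell type and median signal, and batch is not known. The part of these in the likeness of profiles was not tested. For Hes1 they were Col4a5, a basement membrane collagen chain (0.285, Pearson r = 0.987), and Nupr1, a stress-response gene (0.388, r = 0.976). Col4a5 was at 599.4 in activated FL-Y, 925.2 in FL-Y, 291.7 and 1064.4 in FDC, and 30.5 and 95.2 in BMDC, so it shared the low BMDC values and the higher second arrays. For Notch1 they were Mthfs (0.196, r = 0.999) and Pfkp, a phosphofructokinase (0.248, r = 0.987). For Dll1 they were Nyx (0.09) and Slc22a13 (0.18), with low signals of 17.7 and 6.8 in FL-Y. For Notch3 they were Sncg (0.132), at 15.4 in activated FL-Y, and Rras (0.160). For Jag2, matched by 1426430_at alone, they were Ttll11 (0.114) and Cfap45 (0.218), and for Hey1 Adss (0.256) and Isg20l2 (0.282). These Jag2 and Hey1 probe sets were under the filter for FDC and BMDC, at 5.6 and 5.1 on FDC array 1. Notch2 and Jag1 spanned less than 2 log2 units over the arrays and were not matched.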

How the data were processed

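Mouse cells of 4 groups were measured on 6 one-colour oligonucleotide arrays. The deposited intensity values are linear and were scaled by the authors before deposit, since the mean of each array trimmed by 2% at each end was near one target; the labels name biotin labelling with the One-Cycle Target Labeling Kit, and which program computed the intensities and how background was handled is not given in the sources used here. Probe sets were named from GEO's platform annotation: 34945 of 45101 had 1 gene, 932 several and 9160 none, and 64 were controls. Values were taken as log2(signal + 14.1) and tested with limma 3.58.1 in R 4.3.3, with Benjamini-Hochberg adjustment over 27022 probe sets whose mean over the arrays compared was above the 40th percentile (a signal of 46.38 for FDC and BMDC). Groups with 1 array were compared by size alone. The probe set of highest mean log2 value stood for a gene.

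The members and gene lists were chosen with earlier results of these data known. Named were all members, pathway genes called in FDC minus BMDC or past 1 log2 unit on activation with a signal over 100, the gene with the highest mean in each role that had neither, and for each member spanning over 2 log2 units the 2 genes of nearest profile. Other offsets, scalings, filters, a fit on all 6 arrays, the array number as a block and each array left out were tried, and the limma step was tested on simulated data. Promoters came from RefSeq tables on GRCm38.p6. The number of arrays limits the precision.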

Additional observations from a re-analysis of the deposited data

How the results depend on the processing

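Hes1 was higher in FDC under every setting that tested it, with log2 differences of 2.65 to 4.12, and it passed the limma threshold in 7 of 11 alternatives (adjusted p = 0.0185 to 0.111). It missed the threshold with a floor in place of the offset (4.09, adjusted p = 0.0721), with no filter (3.47, 0.0746), without FDC replicate 2 and without BMDC replicate 1, and the 60th percentile filter removed it. The member probe sets called were therefore 0 with the floor, 0 with no filter, 0 with the 60th percentile filter and 0 to 1 with 1 replicate left out. No array number pairs the samples by the labels, since BMDC array 1 has no number there; the changes from array 1 to array 2 in FDC and BMDC correlated at r = 0.199 over 27022 probe sets. With the array number as a replicate block, 2 member probe sets were called, Hes1 and Notch1 (1418634_at, -2.39, adjusted p = 0.0433), and 2376 of all probe sets in place of 2411; the second Notch1 probe set (1418633_at) came to an adjusted p of 0.0514 and Ccnd1 passed (2.98, adjusted p = 0.0237), as Ccnd1 also did with the offset at the 40th percentile (2.93, adjusted p = 0.0434). All probe sets called came to 1454 with the floor, 1428 with no filter and 1305 to 2074 with 1 replicate left out. Other pathway genes called came to 6 with the offset at the 40th percentile, 5 with rescaling to one median, 5 with the 60th percentile filter and 1 to 3 with 1 replicate left out. Notch1 (1418634_at) ranged from -3.30 to -1.49 with 1 replicate left out. Jag1 1421106_at turned to -0.02 with the offset at the 40th percentile and ranged from -0.85 to 0.95 with 1 replicate left out, Jag2 1426431_at from -0.12 to 0.44 and Notch2 1451889_at from -0.58 to 0.54. The share of probe sets past 1 log2 unit on activation was 11.3% with the floor, 2.8% with the offset at the 40th percentile, 15.6% with no filter and 3.38% with the 60th percentile filter. Dll1 in FL-Y minus FDC was -2.51 with the floor and -1.42 with the higher offset, and Jag1 (1434070_at) on activation was 1.11 with rescaling to one median. The cause of these changes was not tested. Of the 14 member probe sets, 7 stayed at or below a signal of 150 on all 6 arrays, which limits what can be said of them.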
